A study of Mus musculus with 12 samples.

Results

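Peg3 (paternally expressed gene 3, ENSMUSG00000002265) is 1 of 30073 genes with a DNA methylation level in the series, and its levels were followed through 6 groups of mouse cells. All values listed under its gene identifier were taken, together with the CpG islands and island shores that overlap the gene or lie within 5 kb of it. The assay was reduced representation bisulfite sequencing (RRBS), which cuts DNA with MspI at CCGG and reads methylated cytosines as C after bisulfite treatment. The 12 libraries, 2 in each group, came from female embryonic stem cells (ESCs), their parthenogenetic counterparts (pESCs), primordial germ cells (PGCs) of embryonic day 9.5 and 12.5 (E9.5 and E12.5), and PGC-like cells (PGCLCs) made from either kind of stem cell. All libraries carry the strain label C57BL6. According to the study, the pESCs were derived from activated oocytes, so that no paternal genome is present, both kinds of stem cell carried an Actin-GFP transgene, and the PGCs came from female embryos and were sorted on SSEA1, with or without CD61. PGCLCs were made by 2 days of induction to epiblast-like cells with bFGF, activin A and KSR, and 4 further days with BMP4, SCF, EGF and LIF. The labels do not say whether the replicates of a group are separate lines, inductions or litters, so the p-values below measure the spread between these libraries only, which may be technical.

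Peg3 encodes a large zinc finger protein that binds DNA and is expressed from the paternal copy. Its promoter lies in a CpG island that it shares with Usp29, which is transcribed in the opposite direction, and this island is methylated in the oocyte and kept methylated on the maternal copy in somatic cells. Parthenogenetic cells hold maternal copies of it alone. PGCs lose DNA methylation, imprints included, while they migrate to and settle in the gonad.

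The gene spans chr7:6703892-6730431 on the minus strand of GRCm38 (GENCODE M21). Its longest coding transcript has 9 exons, and the last of them holds 89.6% of the 4713 bp of coding sequence and the whole 3' untranslated region (UTR). Of the 5 gene classes in the files (promoter, 5' UTR, exon, intron, 3' UTR), Peg3 was listed in 3, and neither a promoter nor an intron value was given for it in any library. Exon and 3' UTR levels were listed in all 12 libraries and the 5' UTR level in 7. One CpG island (chr7:6730063-6730398) and 1 shore (chr7:6729785-6731786) were added, which made 5 features, with 31 gene values and 14 island and shore values.

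MspI sites are sparse at the gene. The gene and the 2000 bp before its start hold 19 fragments between neighbouring sites, and 6 of these are up to 300 bp long from cut to cut. Of these 6, 3 lie in the last exon. The remaining 3 lie around exon 1, inside the island, and the longest of them, chr7:6730261-6730329, measures 65 bp and holds 5 CpGs. No fragment that lies wholly in the 2000 bp before the start is shorter than 362 bp. The limit of 300 bp was set here and not taken from the study, and longer fragments may also have been read. One of 304 bp with 17 CpGs lies close to exon 1. The files do not say which CpGs were read, so this map shows where short fragments lie and not where reads came from.

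**Figure D1:**
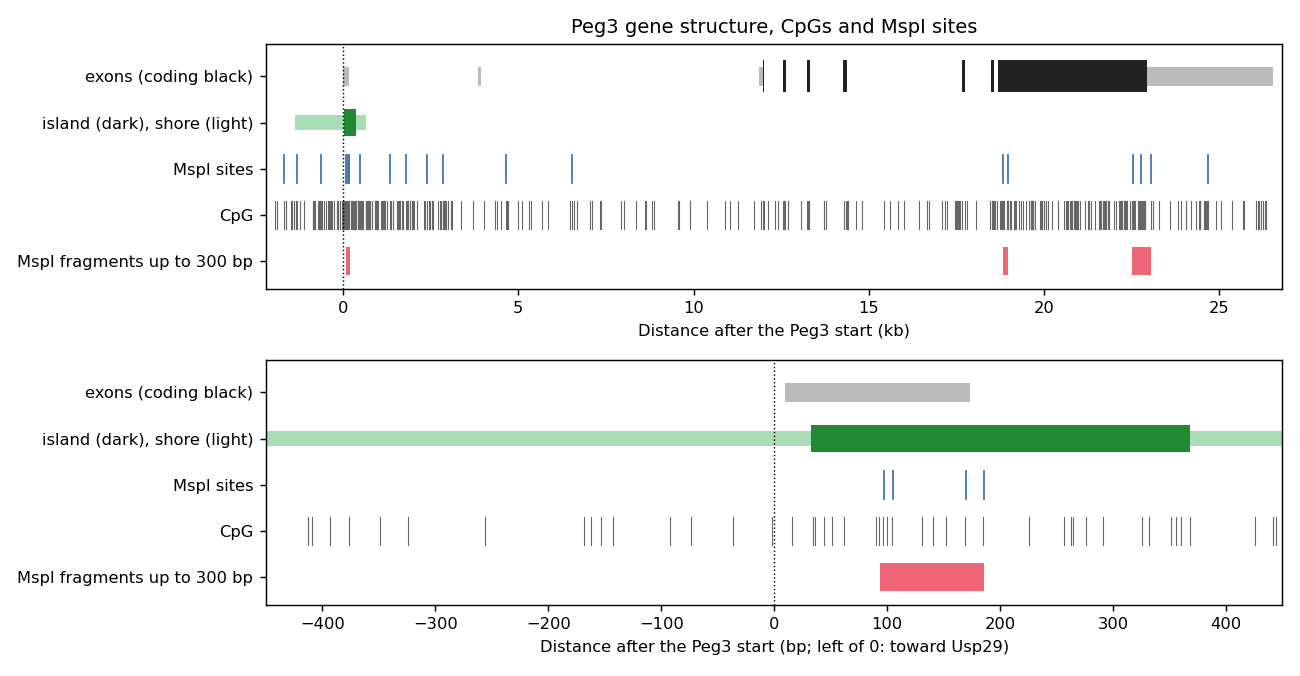
Exons, CpG island, shore, MspI sites, CpGs and MspI fragments up to 300 bp of Peg3, against the distance after the start of the gene, in kb over the whole gene (top) and in bp around the start (bottom). The 6 short fragments fall into 2 places, with 3 in exon 1 and its border to intron 1 and 3 in the last exon.

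The sequences below show what the 2 places hold, read from GRCm38 on the minus strand, in the direction of Peg3 transcription. The first 2 are the short fragments that lie wholly in the coding part of the last exon, with each CpG in capitals. An exon level can also draw on the short fragments of exon 1 and on the one across the stop codon. The coding fragments lie at chr7:6711466-6711611, with 6 CpGs, and at chr7:6707667-6707909, with 13 CpGs.
First coding fragment: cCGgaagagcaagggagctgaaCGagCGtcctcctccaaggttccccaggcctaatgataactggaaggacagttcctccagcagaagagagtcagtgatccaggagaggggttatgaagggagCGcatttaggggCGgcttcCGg
Second coding fragment: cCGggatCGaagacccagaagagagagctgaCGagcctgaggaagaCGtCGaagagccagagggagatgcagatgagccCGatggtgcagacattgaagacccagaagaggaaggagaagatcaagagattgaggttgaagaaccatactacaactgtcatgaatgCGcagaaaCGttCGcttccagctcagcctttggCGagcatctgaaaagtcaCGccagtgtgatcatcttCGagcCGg
The third fragment of the last exon, chr7:6707375-6707670, measures 292 bp with 8 CpGs and runs across the stop codon. It is the only one up to 300 bp that reaches the 3' UTR (chr7:6703892-6707508).

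At the other end of the gene, 28 bases of exon 1 (chr7:6730316-6730343) hold 2 neighbouring MspI sites, shown in capitals.
Exon 1 sites: gcgccgCCGGgcgcCCGGttcagtgtgg
The 146 bp between the starts of Peg3 and Usp29 (chr7:6730432-6730577) hold 5 CpGs, in capitals, and 0 MspI sites.
Spacer: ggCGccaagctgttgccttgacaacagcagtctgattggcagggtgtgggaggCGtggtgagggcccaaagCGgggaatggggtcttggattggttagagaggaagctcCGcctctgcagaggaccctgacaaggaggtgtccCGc
The island itself is 336 bp long with 27 CpGs and 4 MspI sites, a density of 8.04 CpGs per 100 bp against 0.912 in the 3' UTR. TGCCGC, the core of the motif bound by the imprint guard ZFP57, occurs 2 times in the island on either strand and 0 times in the 141 bp that exon 1 and the island share. It was found in 11.6% of 32851 RefSeq promoters of 300 bp (GRCm38.p6) and not in that of Peg3. Intron 1, where clustered YY1 sites are known, is 3683 bp long and holds GCCATNTT 12 times and TGCCGC 8 times on either strand. GCCATNTT was found in 6.05% of the promoters, which are far shorter than this intron, so the 2 figures are not a like comparison.

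The 5' end of Peg3 was measured in 7 libraries. The level of the island was 36.7% in ESC replicate 1, 65.7% and 52.3% in pESCs, 26.5% and 51.4% in E12.5 PGCs, and 56.7% and 71.1% in pESC-PGCLCs. ESC replicate 2, both E9.5 PGC and both ESC-PGCLC libraries had no value. The 5' UTR and the shore of Peg3 and the promoter of Usp29 carried the identical value in each of the 7 libraries and were missing in the same 5, so the 4 features count as 1 measurement. Exon 1, the island and the shore share 141 bp (chr7:6730258-6730398), which hold 14 CpGs and 3 MspI sites. The bounds of the Usp29 promoter are not given, so its overlap with this stretch is unknown.

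All pESC and pESC-PGCLC values at the 5' end lay above the value of ESC replicate 1 and above both E12.5 PGC values. The lower pESC value and the higher E12.5 PGC value were 52.3% and 51.4%, so these groups nearly met, and replicates differed by 13.4 to 25.0 percentage points. The difference between pESCs and ESCs was 22.3 points with only 1 ESC library (log2 odds difference 1.30, 95% interval -0.15 to 2.74, limma adjusted p = 1), in a fit in which 0% of 153932 features were called and 2353 had an unadjusted p under 0.05. As everywhere below, a feature was called at an adjusted p under 0.05 and a difference of at least 10 points between group means. The 63.9% ± 10.2 (SD, n = 2) of pESC-PGCLCs exceeded the 38.9% ± 17.6 (n = 2) of E12.5 PGCs by 24.9 points (adjusted p = 0.236, interval -0.27 to 3.28 in log2 odds, 0.0105% of 143141 features called). It exceeded the 59.0% ± 9.48 of pESCs by 4.88 points (adjusted p = 0.735, interval -0.83 to 1.43, 11.6% of 142521 features called). Both of these tests were fits of the 2 groups alone, chosen after the data were seen. None of the 3 island differences passed, and their read depth is unknown, as the files hold no counts.

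The island of Peg3 was nevertheless far from the usual level of islands. The median island level lay between 1.49% and 2.14% in the 7 libraries, and Peg3 stood above 94.3% of the listed islands in E12.5 PGC replicate 1 and above 99.7% in pESC-PGCLC replicate 2, the extremes of its rank.

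The body of the gene had values in all 12 libraries. Exon levels were 74.7% and 59.8% in ESCs, 74.5% and 68.8% in pESCs, 84.9% and 83.8% in E9.5 PGCs, 47.2% and 47.7% in E12.5 PGCs, 70.2% and 68.5% in PGCLCs from ESCs, and 65.4% and 65.8% in PGCLCs from pESCs. The E9.5 PGC libraries were the highest of the 12 and the E12.5 PGC libraries the lowest, with no other library between the members of either pair. The PGCLCs of both origins fell inside the range of the ESCs.

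The 3' UTR followed the same order. Its level was 77.8% and 58.9% in ESCs, 75.0% and 70.3% in pESCs, 83.6% and 83.6% in E9.5 PGCs, 47.3% and 46.5% in E12.5 PGCs, 69.2% and 68.4% in PGCLCs from ESCs, and 64.9% and 65.9% in PGCLCs from pESCs. The 3' UTR is part of the last exon, so the 2 features are not independent readouts. Replicates lay within 1.73 points of each other in the PGC and PGCLC groups, and 15.0 points (exon) and 18.8 points (3' UTR) apart in ESCs.

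**Figure D2:**
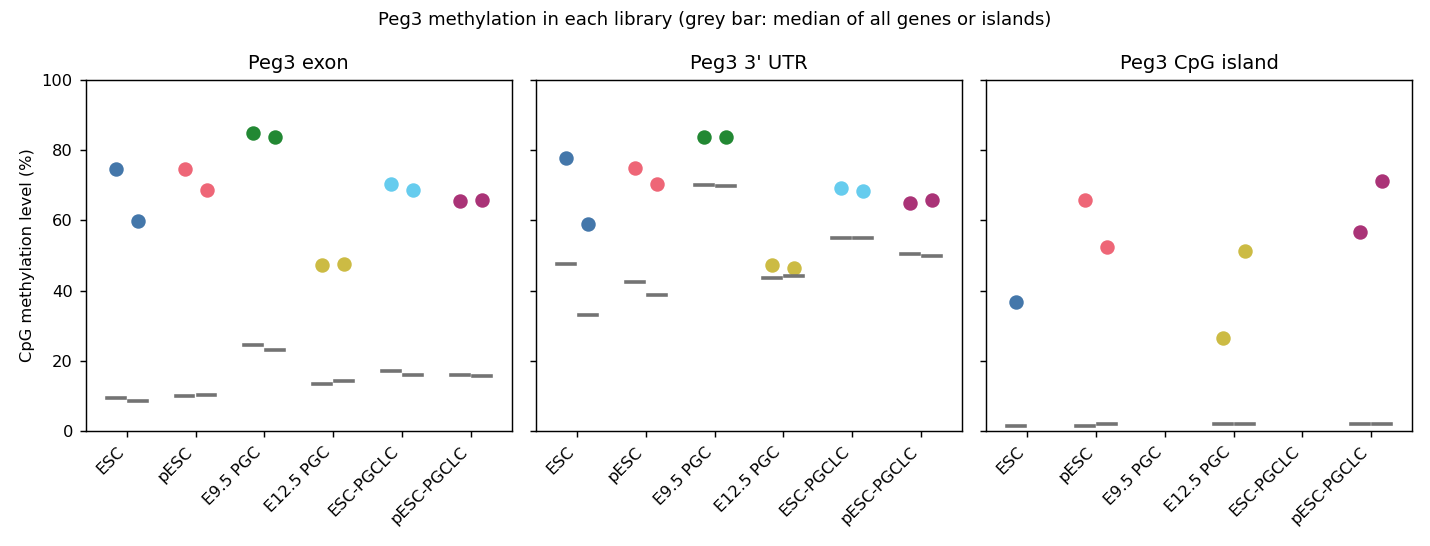
CpG methylation level in % of the Peg3 exons, 3' UTR and CpG island in each library, 1 point a library with replicate 1 on the left, by group; grey bars give the median over all genes or islands of that library. Exon and 3' UTR points sit near 84% in E9.5 PGCs and near 47% in E12.5 PGCs, and the island has points in 7 libraries only.

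In order of the group means, the exon level was 84.3% ± 0.766 (SD, n = 2 here and in each following group) in E9.5 PGCs, 71.6% ± 4.04 in pESCs, 69.4% ± 1.22 in ESC-PGCLCs, 67.3% ± 10.6 in ESCs, 65.6% ± 0.311 in pESC-PGCLCs and 47.4% ± 0.309 in E12.5 PGCs. Only the first and the last place had no overlap with the group next to them. The 4 groups between them lay within or overlapped the range of the ESCs.

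Compared with the exons of 19001 genes listed in all libraries, the Peg3 exons were highly methylated throughout. They lay above 97.6% to 99.1% of genes in the stem cell libraries, 96.1% to 96.9% in E9.5 PGCs and 95.4% to 97.5% in PGCLCs, but above 85.1% and 85.2% in E12.5 PGCs. The 3' UTR, compared with 3715 genes, was above 94.6% to 98.8% in stem cells, 88.5% to 89.2% in E9.5 PGCs, 88.1% to 93.5% in PGCLCs and 57.2% to 61.9% in E12.5 PGCs. In E12.5 PGCs the 3' UTR of Peg3 was thus 2.34 and 3.71 points above the median gene, against 25.7 to 32.4 points in stem cells.

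The comparison of E9.5 with E12.5 PGCs asks what is lost from the gene as PGCs reach the gonad. The exon level fell by 36.9 points (log2 odds difference -2.50 ± 0.10 SE, adjusted p = 7.47e-05), and the 3' UTR level by 36.8 points (-2.46 ± 0.09, adjusted p = 7.47e-05). Loss was general, since 49.6% of 137202 features were called. The median exon changed by -9.46 points and the median 3' UTR by -23.8 points. Only 2.03% of genes had an exon difference below that of Peg3, and 5.48% a 3' UTR difference below it. The exon rank depends on the starting level. The median exon stood at 24.6% and 23.2% in the 2 E9.5 PGC libraries and could not fall by 36.9 points. The median over all features was 16.0 points lower in E12.5 PGCs, and with every library centred on its own median Peg3 exons still fell, by 20.9 points (adjusted p = 0.00121).

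PGCLCs of both origins lay between the 2 stages of PGC. Against E9.5 PGCs, the exon level was 14.9 points lower in ESC-PGCLCs (-1.20 ± 0.10, adjusted p = 0.000834, 29.8% of features called) and 18.7 points lower in pESC-PGCLCs (-1.44 ± 0.10, adjusted p = 0.000264, 40.3% of features called). The 3' UTR was 14.9 points lower (adjusted p = 0.000800) and 18.3 points lower (adjusted p = 0.000262). These 2 comparisons share the E9.5 PGC libraries. For the 3' UTR the differences were near those of the median gene, -12.6 and -17.2 points. With libraries centred on their medians the 4 differences kept their sign but shrank to between -4.76 and -6.66 points, under the 10 points required, as the median of all features was 10.1 points lower in ESC-PGCLCs and 12.1 points lower in pESC-PGCLCs than in E9.5 PGCs.

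Against E12.5 PGCs, the exon level was 21.9 points higher in ESC-PGCLCs (1.30 ± 0.10, adjusted p = 0.00202, 22.8% of features called) and 18.2 points higher in pESC-PGCLCs (1.06 ± 0.10, adjusted p = 0.00925, 7.1% of features called). The corresponding differences of the 3' UTR were 21.9 points (adjusted p = 0.00179) and 18.5 points (adjusted p = 0.00778). No PGCLC library overlapped an E12.5 PGC library in either feature. The median exon was 2.34 points higher in ESC-PGCLCs and 1.08 points higher in pESC-PGCLCs, and the Peg3 exon difference lay above those of 97.5% and 98.8% of genes. This rank too depends on the level. The median exon stood at 15.7% to 17.3% in the PGCLC libraries and could not exceed E12.5 PGCs by 18.2 points. The median 3' UTR was 9.81 and 5.43 points higher, and the Peg3 3' UTR difference lay above those of 94.2% and 97.1% of genes. The call for pESC-PGCLCs was the less stable of the 2. Its adjusted p was 0.144 (exon) and 0.187 (3' UTR) in a fit of all 12 libraries, and 0.0936 and 0.0941 in a fit of the 2 groups alone. It was also lost without pESC-PGCLC replicate 1 (0.0687 and 0.0614), without pESC-PGCLC replicate 2 (0.0607 and 0.0562) and, for the exon, without E12.5 PGC replicate 1 (0.0542).

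**Figure D3:**
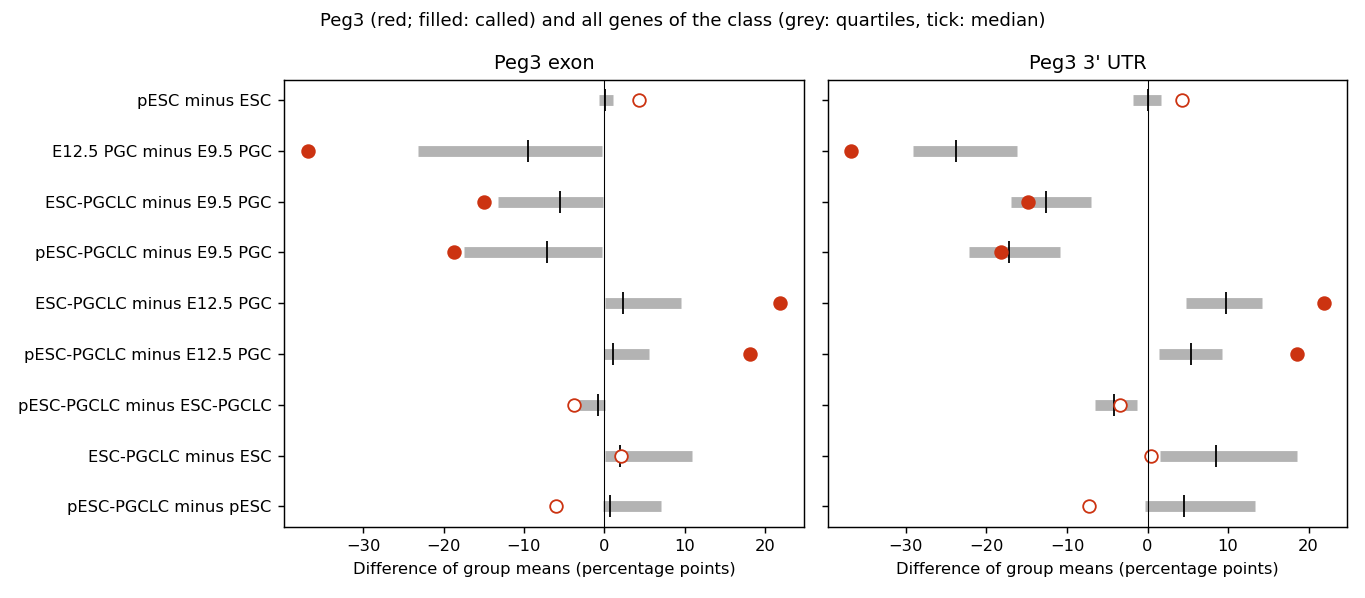
Differences of group means in percentage points for the Peg3 exons (left) and 3' UTR (right) in 9 comparisons, as red points that are filled where the difference was called, over the quartiles (grey bar) and median (tick) of all genes of the class. The largest fall, 36.9 points in the exon, lies between E9.5 and E12.5 PGCs, and the 4 differences that involve stem cells or the PGCLC origins alone are open.

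Neither the exons nor the 3' UTR of Peg3 were called between cells of different parental origin. The exon level was 4.39 points higher in pESCs than in ESCs (log2 odds difference 0.27, 95% interval -0.76 to 1.30, adjusted p = 1), where 0% of 148012 features were called and 2054 had an unadjusted p under 0.05. The 3' UTR was 4.29 points higher (interval -0.91 to 1.40, adjusted p = 1). ESC replicate 2 had the lowest level of the 4 libraries, and without it the differences turned to -3.09 and -5.13 points, while without ESC replicate 1 they became 11.9 and 13.7 points. Between the PGCLCs, those from pESCs were 3.76 points lower in the exon (interval -0.48 to -0.00207 in log2 odds, adjusted p = 0.255) and 3.38 points lower in the 3' UTR (interval -0.44 to 0.0048, adjusted p = 0.265), and 0.0948% of 137202 features were called. The median exon and the median 3' UTR were 0.815 and 4.14 points lower in the same comparison.

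Induction of PGCLCs was not accompanied by a called change of Peg3. The exon level of ESC-PGCLCs exceeded that of ESCs by 2.12 points (interval -0.67 to 0.89 in log2 odds, adjusted p = 0.889, 14.6% of 136848 features called), and that of pESC-PGCLCs was 6.03 points below that of pESCs (interval -1.18 to 0.38, adjusted p = 0.594, 9.66% of features called). The 3' UTR differed by 0.391 points (adjusted p = 0.982) and by -7.28 points (adjusted p = 0.576). The median exon rose by 1.96 points from ESCs and by 0.768 points from pESCs. An exon difference below that of Peg3 was found in 50.6% and 5.27% of genes. The median 3' UTR meanwhile rose by 8.47 and 4.50 points, so that 5.49% of genes had a difference below that of Peg3 in the induction from pESCs. The median of all features was 12.8 points higher after induction from ESCs and 10.03 points higher after induction from pESCs. Relative to these medians of all features Peg3 was lower after induction. From ESCs it was lower by 10.6 points in the exon and 12.4 points in the 3' UTR (limma adjusted p = 0.0157 and 0.0181). From pESCs it was lower by 16.1 and 17.3 points (adjusted p = 0.0119 and 0.0158). All 4 were called, but the medians subtracted had risen more than the median exon or 3' UTR. The uncentred changes from ESCs were 2.12 and 0.391 points, so both falls from ESCs come from the subtracted median. The share of all features called in the centred fit is not reported here. In levels, without ESC replicate 1 the change from ESCs was 9.60 points in the exon, and without ESC replicate 2 it was -5.36 points.

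The change on induction of pESCs minus that of ESCs, the interaction of origin and induction, was -8.15 points in the exon (interval -1.61 to 0.59 in log2 odds, adjusted p = 1) and -7.67 points in the 3' UTR (adjusted p = 1), and 0.0365% of features were called. This too rested on ESC replicate 2, without which the values were -0.674 and 1.75 points.

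The genes next to Peg3 on chromosome 7 belong to the same imprinted domain. In order along the chromosome they are Zim2 and Zim1, zinc finger genes, Peg3, Usp29, which encodes a ubiquitin protease, and the zinc finger genes Zim3 and Zfp264. Apeg3 had no gene identifier in the annotation used. Apart from the Usp29 promoter already described, 12 gene features of the 5 genes and the island at the start of Zim1 were listed in every library of the tests. Zim3 and Zfp264 lie head to head with overlapping starts on opposite strands, so their promoter levels are not separate readouts. Several of the 12 features belong to the same gene, so the counts below are not counts of independent readouts.

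Usp29 gave its values in the intron, since its promoter shares the Peg3 island and its 5' UTR and exon were listed in 5 libraries each. The intron level was 25.7% and 18.6% in ESCs, 23.2% and 24.9% in pESCs, 61.7% and 64.7% in E9.5 PGCs, 39.3% and 40.0% in E12.5 PGCs, 48.2% and 50.1% in PGCLCs from ESCs, and 42.6% and 43.7% in PGCLCs from pESCs. Stem cells were thus the lowest groups here, which they were not in the Peg3 exons. The intron rose by 27.0 points from ESCs to their PGCLCs (adjusted p = 0.00256) and by 19.2 points from pESCs to theirs (adjusted p = 0.0159), the latter call being lost without any 1 of the 4 libraries concerned (adjusted p from 0.0611 to 0.119). After centring, the rise from pESCs was 9.13 points and no longer called. It was 23.5 points lower in E12.5 than in E9.5 PGCs (adjusted p = 0.000122), a difference of -7.56 points after centring that was not called.

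The exons of Zim1 came closest to Peg3 among the neighbours. They had 72.9% and 51.6% in ESCs, 68.0% and 61.7% in pESCs, 84.0% and 83.2% in E9.5 PGCs, 53.6% and 52.3% in E12.5 PGCs, 65.1% and 64.3% in PGCLCs from ESCs and 58.1% and 60.6% in PGCLCs from pESCs. Their fall from E9.5 to E12.5 PGCs was 30.7 points (adjusted p = 7.47e-05). The island of Zim1, in contrast, was between 2.27% and 3.93% in all 12 libraries.

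**Figure D4:**
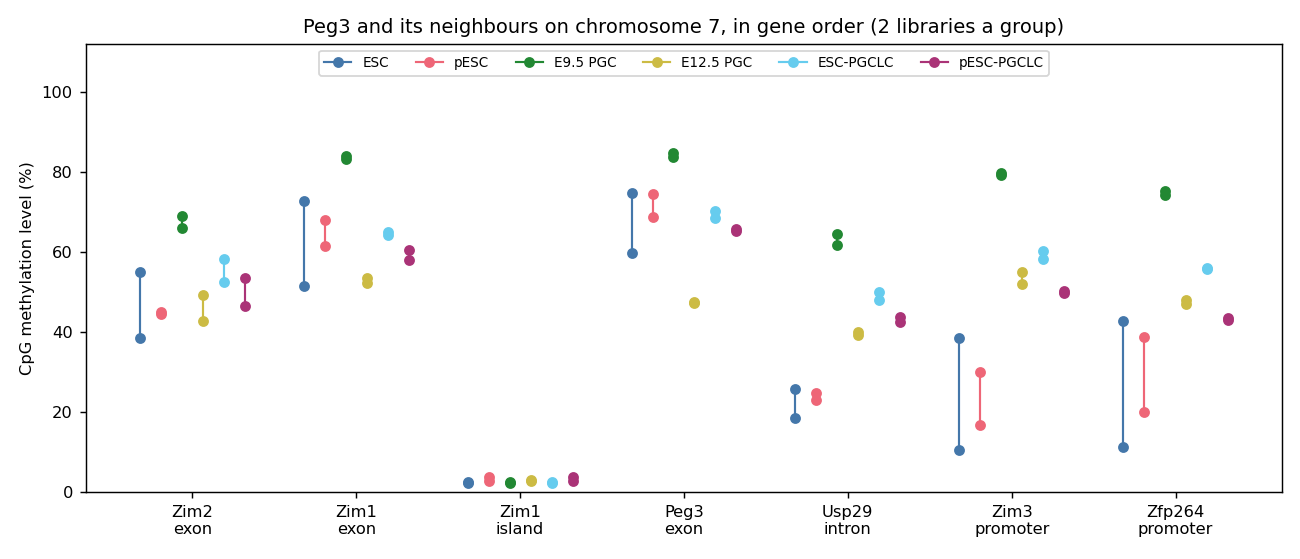
CpG methylation level in % of 7 features of the Peg3 domain, in gene order, with the 2 libraries of a group joined by a line. In each feature but the island of Zim1 the E9.5 PGC points are the highest, and the ESC points of the Zim3 and Zfp264 promoters lie far apart and below those of Peg3.

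Counted over the 12 neighbouring gene features, 9 fell and 0 rose from E9.5 to E12.5 PGCs, with a median difference of -23.6 points, in a comparison with 49.6% of all features called. Those not called were the promoter and 5' UTR of Zim1 and the intron of Zim2. With libraries centred on their medians, 3 of the 9 falls were still called, in the exon of Zim1, the intron of Zim3 and the promoter of Zfp264. The intron of Zfp264, with a fall of 11.2 points, was 4.75 points higher after centring and not called, and the 3 features not called before were called as higher. Without centring these 3 differed by 0.578 points (Zim1 promoter), -0.722 points (Zim1 5' UTR) and -0.472 points (Zim2 intron). Their rise after centring is thus nearly all the subtracted median. Against E9.5 PGCs, 8 of 12 were lower in ESC-PGCLCs (median -16.5 points, 29.8% of all features called), of which 2 were called in the fit of all 12 libraries and 2 after centring. In pESC-PGCLCs 8 of 12 were lower (median -22.1 points, 40.3% of all features called), 6 of them also after centring. Against E12.5 PGCs, 1 of 12, the exon of Zim1, was higher in ESC-PGCLCs (11.8 points, adjusted p = 0.00523, 22.8% of all features called), and it was called neither in the fit of all 12 libraries nor after centring. Without ESC-PGCLC replicate 1 this count was 2. In pESC-PGCLCs 0 of 12 were called by limma against 7.1% of all features, 2 had an unadjusted p under 0.05, and the median difference was -0.946 points. From ESCs to ESC-PGCLCs 4 of 12 rose, with 14.6% of all features called and a median of 19.5 points, which were the exons of Zim3 and Zfp264 and the introns of Usp29 and Zim2. This count was 8 without ESC replicate 1, 2 without ESC replicate 2, 2 and 1 without ESC-PGCLC replicates 1 and 2, and 2 on untransformed levels or after centring. After centring, 3 other features were called as lower from ESCs to ESC-PGCLCs, the promoter and exon of Zim1 and the intron of Zfp264. From pESCs to pESC-PGCLCs 1 of 12 rose, the intron of Usp29 described above, close to the 9.66% of all features called. After centring, 2 were called as lower in this comparison, the exon of Zim1 and the intron of Zfp264. The ESC replicates of the Zim3 promoter had 38.7% and 10.7%, and those of the Zfp264 promoter 42.8% and 11.3%, a wider gap than in Peg3. Between pESCs and ESCs limma called 0 of 12, and 0 had an unadjusted p under 0.05. Between the PGCLCs it called 0 of 12, with 8 at an unadjusted p under 0.05, as had 26558 of all 137202 features. With an offset of 0.1, or on untransformed levels, 2 of the 12 were called, the promoter of Zfp264 and the intron of Zim3. The share of all features called in those fits is not reported here.

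Peg3 was also set beside 17 other genes whose imprint is laid down in the oocyte. Of the 18 on the list, 12 had a promoter level in all libraries, which Peg3 did not, and 15 had an exon level, Peg3 among them. For H13 and Inpp5f the known mark lies at an internal start and not at the promoter of the gene. The Peg3 exon level is not a reading of its imprint alone, since 3 of its short MspI fragments lie in the last exon, outside the island. In ESC replicate 1 the Peg3 exons had 74.7%, against 36.7% at the island. How far each of the other exon levels reflects its mark was not tested, so the exons may not be like measures. The 14 other exons had a median level of 18.5% in ESCs and 43.6% in pESCs, and the 12 promoters 5.72% and 38.8%. The Peg3 exons, at 67.3% and 71.6%, thus lay above the highest of the 14 in ESCs, Mest at 53.5%, and below Peg13 (75.4%) in pESCs. The difference between pESCs and ESCs had a median of 23.4 points over the 14 exons and 27.7 points over 13 promoters, against 4.39 points in the Peg3 exons and 22.3 points at the 5' end of Peg3, the latter with 1 ESC library. limma called 0 of the exons and 0 of the promoters. Of these, 11 exons and 10 promoters had an unadjusted p under 0.05, as had 2054 of all 148012 features. In the fit of all 12 libraries 6 exons and 7 promoters were called, and the share of all features called in that fit is not reported here.

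From E9.5 to E12.5 PGCs, 12 of the 14 other exons fell, with a median of -22.2 points, where 47.6% of all exons were called. With libraries centred on their medians 2 of the 14 were called as lower and 1 as higher. All 12 promoters fell, with a median of -22.1 points, where 32.2% of all promoters were called, and 0 were called after centring. The fall of the Peg3 exons, which is not that of the island, exceeded that of each of the 14, of which Nnat had the largest at 27.5 points. All 14 started lower, the highest being Mest at 73.8% in E9.5 PGCs against 84.3% in Peg3. From ESCs to ESC-PGCLCs 11 of the 14 exons rose and 1 fell, with a median of 22.5 points, where 18.0% of all exons were called. Plagl1 rose most, by 40.4 points, and Inpp5f fell by 15.9 points, a call lost without ESC replicate 1 or ESC-PGCLC replicate 2, with an offset of 0.1 and on untransformed levels. After centring, 6 of the 14 rose. From pESCs to pESC-PGCLCs 2 of the 14 rose and 1 fell, with a median of -2.61 points, where 11.7% of all exons were called. Against E12.5 PGCs the exons of ESC-PGCLCs were higher in 3 of 14 (median 5.57 points), near the 21.8% of all exons called, and those of pESC-PGCLCs in 4 of 14 (median 8.35 points), where 6.31% of all exons were called. The first count was 1 without E12.5 PGC replicate 1 or ESC-PGCLC replicate 1, the second 0 without any 1 of its 4 libraries and 1 in the fit of all 12, and both were 0 after centring. Snrpn, the most changed of them in both, had 18.2 and 24.2 points, against 21.9 and 18.2 in Peg3.

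**Figure D5:**
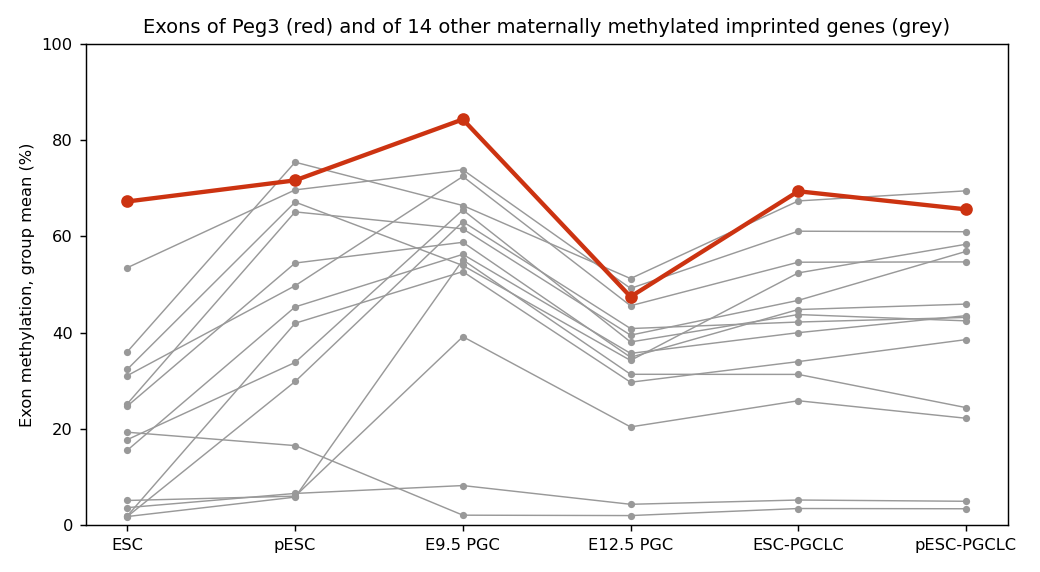
Group mean of the exon methylation level in % for Peg3 (red) and 14 other imprinted genes with a maternal germline mark (grey); lines join the values of 1 gene and imply no order in time. The red line is the highest in ESCs, at 67.3%, in E9.5 PGCs, at 84.3%, and in ESC-PGCLCs, at 69.4%, and lies below Mest and Peg13 in E12.5 PGCs.

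Genes whose exon levels were closest to those of Peg3 over the 12 libraries were found by the mean absolute difference among 19000 genes. They were Nedd9, an adhesion scaffold (2.12 points), the predicted gene Gm2048 (2.16), Kdm4b, a histone demethylase (2.27), the macroH2A-type gene H2afy3 (2.27) and Itih1, an inter-alpha-trypsin inhibitor chain (2.28). Pearson's r with Peg3 over the 12 libraries was 0.974 to 0.986 for these 5, as a description, since the genes share libraries and the loss from E9.5 to E12.5 common to most genes. In the 3' UTR the closest of 3714 genes were Ptprg, a receptor tyrosine phosphatase (2.03 points), the calcium channel gene Cacna1b (2.10), the Polycomb-related gene L3mbtl2 (2.18), the ciliary transport gene Ift122 (2.21) and the small GTPase gene Arfrp1 (2.48). None of the 10 lies on chromosome 7. With the 6 group means in place of the 12 libraries, 2 of the 5 exon genes (Gm2048 and Kdm4b) and 3 of the 5 genes of the 3' UTR (L3mbtl2, Ptprg and Cacna1b) remained among the closest 5.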

How the data were processed

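Methylation levels of 12 RRBS libraries were used. Each deposited file gives a fraction, the methylated share of the CG calls in a feature, which the authors computed and, per their methods, corrected for non-conversion. Reads were aligned with Bismark 0.16.3 and Bowtie2, and the submitters' processing notes name mm10. Coverage, the coverage minimum and the promoter definition are not given in the sources used here, so precision per value is unknown. Groups and replicate numbers were taken from sample titles. limma 3.58.1 (R 4.3.3) was run on log2((level + 0.01) / (1 - level + 0.01)) over the features that had a level in each library fitted, with Benjamini-Hochberg adjustment. ESCs and pESCs formed 1 fit of 4 libraries, PGCs and PGCLCs 1 of 8, and stem cells and PGCLCs 1 of 8. The step was tested on simulated levels. Sequences and sites came from GRCm38, and names from GENCODE M21, in which 99.9% of gene identifiers were found. Island starts, counted from 0 in the files, are printed counted from 1. Genes named are Peg3, its domain genes, the highest and lowest of the germline list, and the 5 closest genes by level. The members and lists were chosen with earlier results of these data known. Alternatives changed the offset, scale, libraries, features, centring, spread estimate and block.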

Additional observations from a re-analysis of the deposited data

How the results depend on the processing

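The exon and 3' UTR differences of the 10 comparisons were recomputed 252 times in all, 88 of these with 1 library left out, and 229 of the values kept the direction and the call. Only centring and leaving out a library could alter a difference itself, and the other alternatives could change the call alone. To begin with, 5 of 10 comparisons of each feature were called. The call of pESC-PGCLCs against E12.5 PGCs was lost in the fit of all 12 libraries and in that of the 2 groups alone, with unchanged differences of 18.2 (exon) and 18.5 points (3' UTR). Centring subtracted 1 value, the library median, from every feature of a library, although the classes did not move alike. From E9.5 to E12.5 PGCs the median promoter changed by -1.49 points and the median 3' UTR by -23.8 points. A centred difference is thus relative to the median of all features and not to that of the class. The exon and 3' UTR differences from E9.5 PGCs then became -4.84 and -4.76 points in ESC-PGCLCs and -6.66 and -6.20 points in pESC-PGCLCs, no longer called for being under 10 points. Those of ESC-PGCLCs from ESCs reversed to -10.6 and -12.4 points and those of pESC-PGCLCs from pESCs grew to -16.1 and -17.3 points, and these 4 were called. With 1 library left out, exon and 3' UTR differences ranged from -3.09 to 11.9 and from -5.13 to 13.7 points for pESCs against ESCs, from -5.36 to 9.60 and from -9.03 to 9.81 points for ESC-PGCLCs against ESCs, from -15.6 to -0.674 and from -17.1 to 1.75 points for the interaction, and from 17.9 to 18.4 and from 18.0 to 19.0 points for pESC-PGCLCs against E12.5 PGCs, whose adjusted p ranged from 0.0449 to 0.0687 and from 0.0414 to 0.0614. The arm left with 1 library was assumed to vary like the others.

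With a replicate block in the fit, the differences were the same and 5 of 10 exon and 5 of 10 3' UTR comparisons were called, as without it. Deviations of same-numbered libraries correlated at 0.518 between ESCs and pESCs and at -0.0602 to 0.183 elsewhere, and no label ties the numbers to a shared batch, so they pair nothing. Among the neighbouring differences called without centring, the centred fit turned 2. These were the intron of Zfp264 from E9.5 to E12.5 PGCs (4.75 points) and that of Zim2 from ESCs to ESC-PGCLCs (-0.687 points). An alternative coverage minimum was not run, because the levels come without coverage, which also limits every value of the island.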
